A study of Mus musculus with 2 samples.

Results

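The serum amyloid A genes of the mouse, Saa1, Saa2, Saa3 and Saa4, were followed in single-cell RNA-Seq (scRNA-Seq) libraries of hepatocytes. They were 4 of the 27998 genes listed in the count tables, and all 4 had UMIs in both libraries. The genes were chosen by a measured value, the ratio of Saa1 and Saa2 between the libraries in earlier results of these data, so their values at both times are a description and were not tested. Hepatocytes were obtained from C57BL/6 mice (C57BL/6J in the study's methods) of 10 to 12 weeks on a normal diet by collagenase perfusion in 2 steps. One library came from undamaged liver (0 h) and the other from liver 48 h after partial hepatectomy (PHx48h), an operation that takes away a large share of the organ and makes the rest regenerate. Each time had 1 library, made from the hepatocyte preparation of 1 male mouse, and no animal carried a transgene or received an agent. Every difference below therefore compares 2 libraries, and its size against the variation between mice is unknown.

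Serum amyloid A proteins are small apolipoproteins carried on high-density lipoprotein. In the acute phase response, hepatocytes secrete the products of Saa1 and Saa2 in large amounts after IL-6, IL-1 and TNF signal through STAT3, NF-κB and C/EBP factors. Saa3 is known for its induction in macrophages, adipocytes and epithelia, and Saa4 encodes the constitutive form that changes little in inflammation.

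The 4 genes lie side by side on chromosome 7 within 42.3 kb (GENCODE M21, GRCm38, chr7:46711998-46754313). Saa3 (ENSMUSG00000040026, chr7:46711998-46715700), Saa4 (ENSMUSG00000040017, chr7:46727998-46732603) and Saa1 (ENSMUSG00000074115, chr7:46740497-46742980) are on the minus strand. Saa2 (ENSMUSG00000057465, chr7:46751790-46754313) is on the plus strand, so that Saa1 and Saa2 point away from each other. RefSeq lists the symbol of each of this pair as a synonym of the other. The values here follow the identifiers. The promoters are shown because Saa1 and Saa2 moved together while Saa3 and Saa4 did not. Each sequence runs 5′ to 3′ from 250 to 51 bases before the RefSeq start site of its gene (GRCm38.p6) and lies upstream of every annotated exon of the 4 genes. The windows are chr7:46743031-46743230 for Saa1, chr7:46751583-46751782 for Saa2, chr7:46715727-46715926 for Saa3 and chr7:46732654-46732853 for Saa4, each written on the strand of its gene. Capitals mark matches to the letters TTGCNNAA (C/EBP factors) or to an NF-κB pattern (GG, any 3 bases, then TTTCC), on either strand.
Saa1: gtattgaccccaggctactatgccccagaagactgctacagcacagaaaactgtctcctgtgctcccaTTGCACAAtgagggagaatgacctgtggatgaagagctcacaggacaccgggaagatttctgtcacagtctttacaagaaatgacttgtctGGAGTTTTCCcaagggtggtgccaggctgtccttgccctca
Saa2: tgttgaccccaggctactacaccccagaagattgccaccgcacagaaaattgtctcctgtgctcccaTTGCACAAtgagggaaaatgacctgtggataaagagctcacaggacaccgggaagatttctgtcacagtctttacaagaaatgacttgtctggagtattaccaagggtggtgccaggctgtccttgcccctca
Saa3: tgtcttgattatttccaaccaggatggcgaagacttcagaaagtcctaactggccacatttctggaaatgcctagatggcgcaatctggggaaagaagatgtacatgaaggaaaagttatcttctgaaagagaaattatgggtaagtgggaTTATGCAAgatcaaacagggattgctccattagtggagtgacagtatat
Saa4: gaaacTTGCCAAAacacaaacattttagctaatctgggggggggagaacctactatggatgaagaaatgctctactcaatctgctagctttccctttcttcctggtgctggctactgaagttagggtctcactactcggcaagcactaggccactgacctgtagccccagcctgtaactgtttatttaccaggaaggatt

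The Saa1 and Saa2 windows were identical at 188 of 201 aligned positions (93.5%), whereas Saa1 shared 49.3% of positions with Saa3 and 45% with Saa4. All 4 windows held letters of the C/EBP type, which 8.11% of 32851 promoter windows of this length held. The match began 182 bases before the start site in Saa1 and 183 bases before it in Saa2, at 99 bases in Saa3 and at 245 bases in Saa4. The NF-κB letters occurred in the Saa1 window alone, 91 bases before the start, and in 3.6% of all windows. TTCNNNGAA, the letters of a STAT site, occurred in none of the 4 and in 5.76% of all windows. The motifs were chosen with the sequences in view, and a match describes letters only.

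The near identity of the pair extends to the transcripts, which matters for counting. The Saa1 and Saa2 transcripts, of 609 and 652 bases, were identical at 87.3% of aligned positions, and their 3′ ends at 280 of 303 positions (92.4%). Of 512 windows of 98 bases in the Saa1 transcript, 2 also occurred in a Saa2 transcript, and none of the 303 windows in its last 400 bases did. Reads of that length from the 3′ end would thus differ by at least 1 base, but the read length and the handling of such reads in the deposited counts are not given in the sources used here, and the division of UMIs between Saa1 and Saa2 is uncertain for that reason.

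The barcodes, each of which tags 1 droplet, were divided by their share of mitochondrial (mt) UMIs and by markers of other liver cells. The 0 h library held 59202 barcodes and the PHx48h library 1586, of which 148 barcode sequences were in both. Barcodes over 30% mt numbered 3844 at 0 h and 749 at 48 h. Barcodes under 2% mt numbered 52237 and 509, barcodes between these limits 2257 and 196, and marker-defined non-hepatocyte barcodes 864 and 132. Median non-mt UMIs per barcode were 1214.5 and 4293 over 30% mt, and 1412 and 5274 under 2% mt. The 12 hepatocyte markers were highest over 30% mt, at 129497 counts per 1000000 non-mt UMIs (CPM) at 0 h and 121488 CPM at 48 h. Under 2% mt they stood at 107189 and 79079 CPM, and in the non-hepatocyte barcodes still at 67153 and 44735 CPM. In the latter at 0 h, 294 barcodes had macrophage, 269 endothelial and 184 stromal markers. At 48 h the corresponding numbers were 22, 55 and 46. The study set aside cells of high mt content and possible doublets, which was not done here. The set under 2% mt held 88.2% of the barcodes of the 0 h library, and how many of them hold a cell was not tested.

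Saa1 was the most abundant member at 48 h in every set of barcodes. Over 30% mt it went from 1993 UMIs, or 347 CPM, at 0 h to 31573 UMIs, or 6391 CPM, at 48 h. The ratio was 18.4 (95% counting interval 17.6–19.3). Under 2% mt, Saa1 stood at 211 CPM at 0 h and 8782 CPM at 48 h, a ratio of 41.7 (40.9–42.5). In the non-hepatocyte barcodes it stood at 139 and 3828 CPM, and between the mt limits at 268 and 7416 CPM. Intervals are exact and cover counting error only. Ranked by level among detected genes over 30% mt, Saa1 moved from place 318 to place 19.

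Saa2 started lower and had the larger ratio. Over 30% mt, 515 UMIs at 0 h gave 89.8 CPM and 21531 UMIs at 48 h gave 4359 CPM, a ratio of 48.5 (44.5–53.1). Without 22 barcodes at 0 h that held many of these UMIs, described below, the Saa2 ratio was 74.6 (66.9–83.4) and that of Saa1 20.2 (19.3–21.2). Under 2% mt the Saa2 level went from 63.6 to 8051 CPM, a ratio of 127 (123–130). In the non-hepatocyte barcodes it went from 33.5 to 3146 CPM, a ratio of 94.0, which was 156 when each library was limited to its 1500 deepest barcodes. The cause was not tested. At 48 h Saa2 was in place 27 of the genes over 30% mt and in place 13 under 2% mt.

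Saa3 remained near the limit of detection at both times. Over 30% mt it had 58 UMIs at 0 h (10.1 CPM) and 51 UMIs at 48 h (10.3 CPM), and the log2 ratio was 0.03 (-0.54 to 0.60). The levels under 2% mt were 6.91 and 9.46 CPM, with a log2 ratio of 0.45 (-0.14 to 0.99). In the non-hepatocyte barcodes, which include macrophages, Saa3 had 10 UMIs at 0 h and 8 at 48 h, with a log2 ratio of 0.84 (-0.70 to 2.33). All 3 intervals include no difference, so none was detectable at this depth.

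Saa4 was lower at 48 h in every set. Over 30% mt it went from 324 CPM (1858 UMIs) to 131 CPM (646 UMIs), a log2 ratio of -1.31 (-1.44 to -1.18). Under 2% mt it went from 221 to 123 CPM, a log2 ratio of -0.84 (-0.99 to -0.70), and in the non-hepatocyte barcodes from 139 to 59.0 CPM. Saa4 and Saa1 were therefore at similar levels at 0 h over 30% mt, while at 48 h Saa1 exceeded Saa4 many times over. Together the 4 genes made up 0.0771% of non-mt UMIs at 0 h and 1.09% at 48 h over 30% mt, 0.0503% and 1.70% under 2% mt, and 0.0316% and 0.704% in the non-hepatocyte barcodes.

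**Figure D1:**
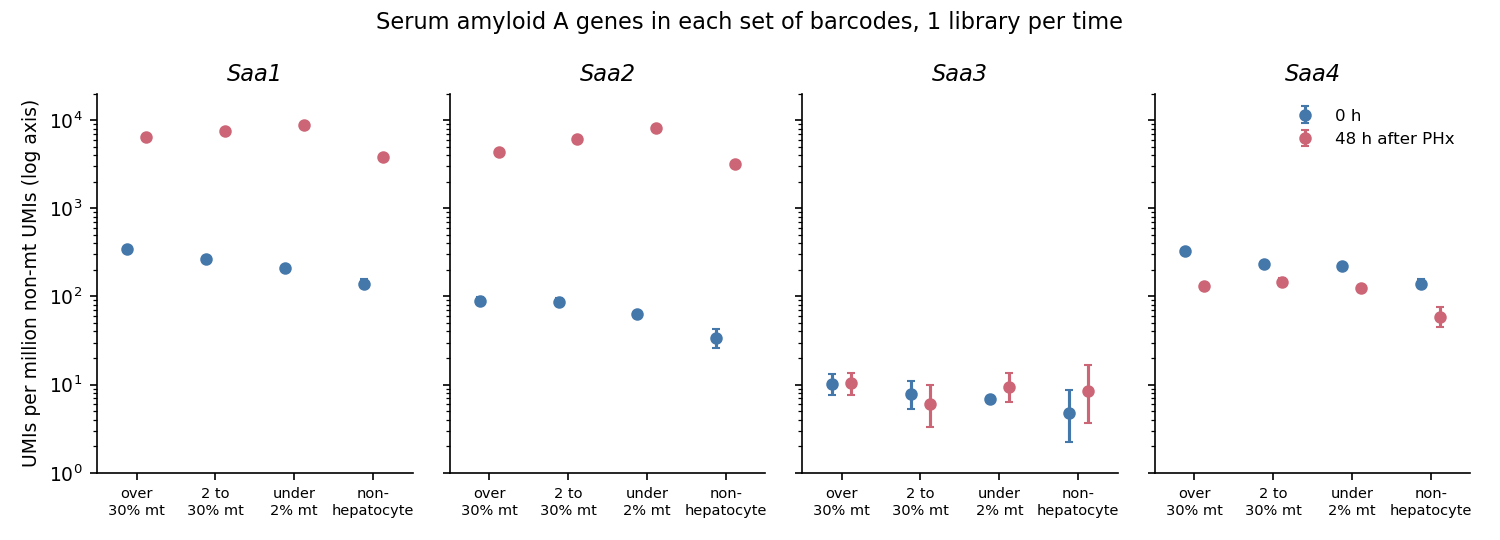
Level of each serum amyloid A gene (CPM, log axis) in 4 sets of barcodes at 0 h (blue) and 48 h after PHx (red), 1 library per time, with exact Poisson 95% intervals that are mostly smaller than the points. Saa1 and Saa2 lie far higher at 48 h in every set, the Saa3 intervals overlap between the times and Saa4 lies lower at 48 h.

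Counts of genes past 2-fold put these ratios beside those of other genes. Over 30% mt, 2 of 4 members were at least 2-fold higher at 48 h and 1, Saa4, at least 2-fold lower. Of 10965 genes with at least 10 UMIs, 32.4% were at least 2-fold higher and 6.42% at least 2-fold lower. The median gene was 0.56 higher on the log2 scale, and with edgeR's TMM scaling 16.6% of genes were higher and 14.9% lower. Relative to the median gene, Saa1 was 3.64 and Saa2 5.04 higher on the log2 scale, and Saa4 stood at -1.87. Under 2% mt, Saa1 and Saa2 were past 2-fold against 24.3% of 12474 genes, and no member was past 2-fold lower against 17.9%. With TMM scaling the shares were 18.9% and 23.8%, and the log2 ratio of Saa4 in this set was -1.11, which is past 2-fold. In the non-hepatocyte barcodes the 2 were past 2-fold against 20% of 11329 genes, and Saa4 was past 2-fold lower against 11.4%. With TMM scaling these shares were 13.9% and 16.5%. Since the ratio chose the members, these counts carry no weight as support.

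Few genes had larger ratios. Among 2673 genes with at least 50 CPM at either time over 30% mt, Saa2 was in place 16, Saa1 in place 26 and Saa4 in place 2533. Above them were Tubb6, a tubulin, Gsta1, a glutathione transferase, Top2a and Ube2c, which act in mitosis, and the noncoding transcript Lockd, all with 1 to 10 UMIs at 0 h. Among 2545 genes under 2% mt Saa2 was in place 7 and Saa1 in place 20, and among 3637 genes in the non-hepatocyte barcodes they were in places 3 and 15.

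Per non-mt UMIs over all barcodes, the Saa1 and Saa2 levels over 30% mt and under 2% mt changed order between the times. The non-hepatocyte set was lowest at both times. At 0 h, Saa1 was 1.65 times (1.57–1.73) as high over 30% mt as under 2% mt, and Saa2 1.41 times (1.29–1.55). For Saa2 this order rested on the 22 barcodes at 0 h described below. Without them Saa2 over 30% mt was at 58.4 CPM, below the 63.6 CPM under 2% mt, and Saa1 at 316 CPM, above 211 CPM. Of 10530517 UMIs over 30% mt at 0 h, 5736351 were non-mt. Against that total with mt UMIs, Saa1 had 1993 and Saa2 515 UMIs. Under 2% mt at 0 h, Saa1 had 16436 and Saa2 4963 of 78476971 UMIs. Per all UMIs including mt, both genes were thus lower over 30% mt than under 2% mt already at 0 h. The change of order was therefore not seen with that total. At 48 h the barcodes over 30% mt were lower, at 0.728 (0.716–0.740) of the level under 2% mt for Saa1 and 0.541 (0.532–0.551) for Saa2. Saa4 was 1.46 times as high over 30% mt at 0 h, and at 48 h its ratio of 1.06 (0.933–1.21) included no difference. This depended on the scaling, and the Saa4 ratio was 0.726 with TMM, 0.657 with DESeq2 size factors and 0.484 per all UMIs including mt. The family as a whole stood at 0.642 of the level under 2% mt at 48 h, and this value depended on the total. It was 0.293 per all UMIs including mt, 0.439 with TMM scaling and 0.398 with DESeq2 size factors.

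Non-hepatocyte barcodes carried Saa1 and Saa2 transcripts in both libraries. At 48 h, the family in these barcodes was at 0.647 of its level over 30% mt, and per all UMIs including mt the direction turned, to 1.16. Among the 3 larger classes, Saa1 stood at 3094 CPM in macrophage, 4369 CPM in endothelial and 3766 CPM in stromal barcodes. Albumin (Alb), which these cells are not known to make, was present beside it. For each 100 Alb UMIs at 48 h there were 37.5 (34.8–40.4) Saa1 plus Saa2 UMIs in macrophage, 37.7 (36.5–39.0) in endothelial and 58.5 (56.1–61.0) in stromal barcodes. In the same library the ratio was 20.7 (20.5–20.9) over 30% mt, 40.3 between the limits and 75.9 (75.3–76.6) under 2% mt. At 0 h it was 0.971 over 30% mt, 0.572 under 2% mt and 0.587 in the non-hepatocyte barcodes. The ratios of the non-hepatocyte barcodes thus lay between those of the other sets at 48 h. Whether free RNA in the droplets carried these UMIs was not tested.

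Detection was compared after thinning every barcode to 1000 non-mt UMIs, which left out 1392 barcodes over 30% mt at 0 h and 4 at 48 h. Over 30% mt, Saa1 was detected in 24.1% of barcodes at 0 h and 98.9% at 48 h, and Saa2 in 6.08% and 98.1%. In the non-hepatocyte barcodes the shares were 13.3% and 90.9% for Saa1 and 30 of 857 barcodes and 93.9% for Saa2, against median depths of 2180 and 5950.5 non-mt UMIs before thinning. Shares near those of the non-hepatocyte barcodes cannot be read as expression. Before thinning, 40 of 3844 barcodes over 30% mt held a Saa3 UMI at 0 h and 34 of 749 at 48 h. After thinning, Saa3 was in 0.734% and 0.805% of them, and Saa4 in 26.3% and 11.8%.

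The balance within the pair moved from Saa1 toward Saa2. Saa1 made up 79.5% (77.8–81.0) of Saa1 plus Saa2 UMIs over 30% mt at 0 h and 59.5% (59.0–59.9) at 48 h. The shares under 2% mt were 76.8% (76.2–77.4) and 52.2% (51.7–52.6). The non-hepatocyte barcodes had 80.6% (76.2–84.5) and 54.9% (53.7–56.1). At 48 h the order of the sets, with over 30% mt highest and under 2% mt lowest, exceeded the counting intervals of these 2 sets, while the non-hepatocyte share and that between the limits (55.0%, 54.4–55.5) overlapped. Single barcodes varied as well. Among barcodes with at least 20 UMIs of the pair, Saa2 exceeded Saa1 in 9.46% of 666 barcodes over 30% mt and in 32.6% of 509 under 2% mt. The variance of the share between barcodes was 1.35 and 1.38 times that of binomial sampling.

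**Figure D2:**
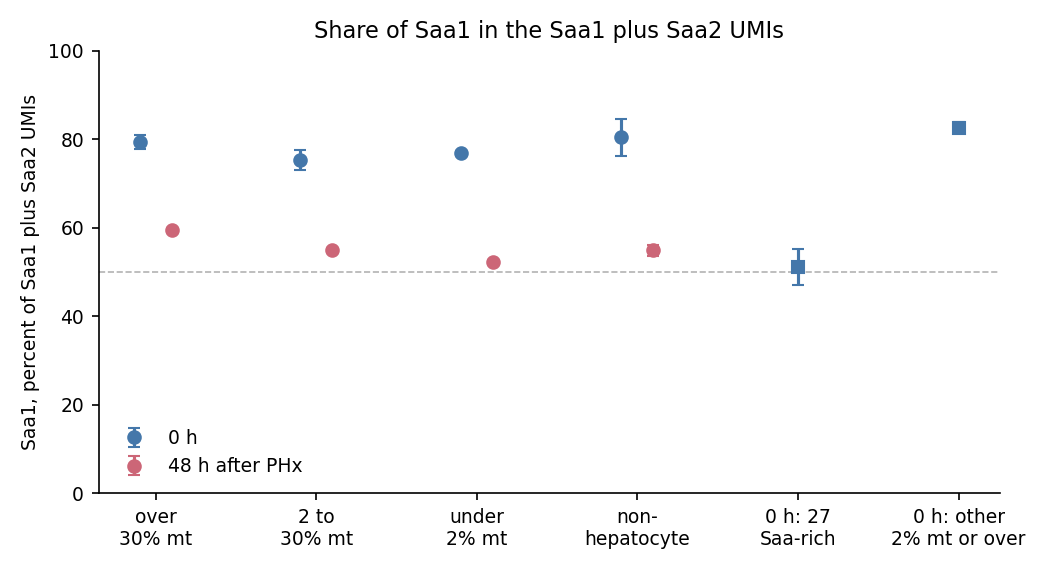
Saa1 as a percent of Saa1 plus Saa2 UMIs in 4 sets of barcodes at 0 h (blue) and 48 h after PHx (red), with exact binomial 95% intervals and a dashed line at equal shares, and in 2 groups of barcodes at 0 h (squares) that are described below. The share was 75.4% to 80.6% in the sets at 0 h and 52.2% to 59.5% at 48 h, and the 27 Saa-rich barcodes at 0 h had 51.1%.

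The spread between single barcodes at 48 h was measured after thinning to 2000 non-mt UMIs. Over 30% mt, 666 barcodes (83 shallower ones left out) had 3 to 71 UMIs of Saa1 plus Saa2, with a median of 22 and a mean of 23.3 (SD 9.92). The variance was 4.23 times the mean, and the coefficient of variation beyond Poisson sampling was 37.2%. Among the 308 genes with a mean of at least 1 UMI, which were not matched to the pair in abundance, 95 had a larger value. Hpx, which encodes the heme carrier hemopexin, had 38.9%, Hp, for haptoglobin, 31.1%, Orm1, for orosomucoid, 27.1% and Alb 35.1%. Apoa1, for an apolipoprotein, had 28.8% and Ttr, for transthyretin, 21.5%. Saa1 plus Saa2 had a larger value than these products apart from Hpx, but other listed acute phase genes with a mean of at least 1 UMI lay on both sides. Orm2 had 72.2%, Hamp 63.3%, Cp 48.0%, Mt1 40.0%, Itih3 38.2% and Fgg 37.4%, all above the pair. Below it were Fgb with 37.0%, Fga with 36.3%, Itih4 with 36.0% and Lcn2 with 23.4%. These 2 groups were named after their values were seen.

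Under 2% mt the spread was narrower. The 509 barcodes had 8 to 54 UMIs with a median of 35, and the excess coefficient of variation was 17.8%, exceeded by 182 of 326 genes. The 132 non-hepatocyte barcodes had 2 to 37 UMIs with a median of 12, and the excess was 52.9%. Saa1 and Saa2 varied together across barcodes, with Spearman's rho of 0.54 over 30% mt (666 barcodes), 0.28 under 2% mt (509) and 0.60 in the non-hepatocyte set (132). These barcodes share a library and a fixed total, and the pair could share misassigned reads.

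At 0 h the same thinning gave 746 barcodes over 30% mt, with a median of 0 UMIs of the pair, and 3098 shallower ones were left out. Of these, 740 had fewer than 10 UMIs and 6 had at least 10, up to 21. At 48 h, 637 of 666 had at least 10. The ranges overlapped from 3 to 21 UMIs. The median at 48 h was 22, so a large share of the 48 h barcodes lay within the range at 0 h, whereas few of the 0 h barcodes lay within that at 48 h.

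**Figure D3:**
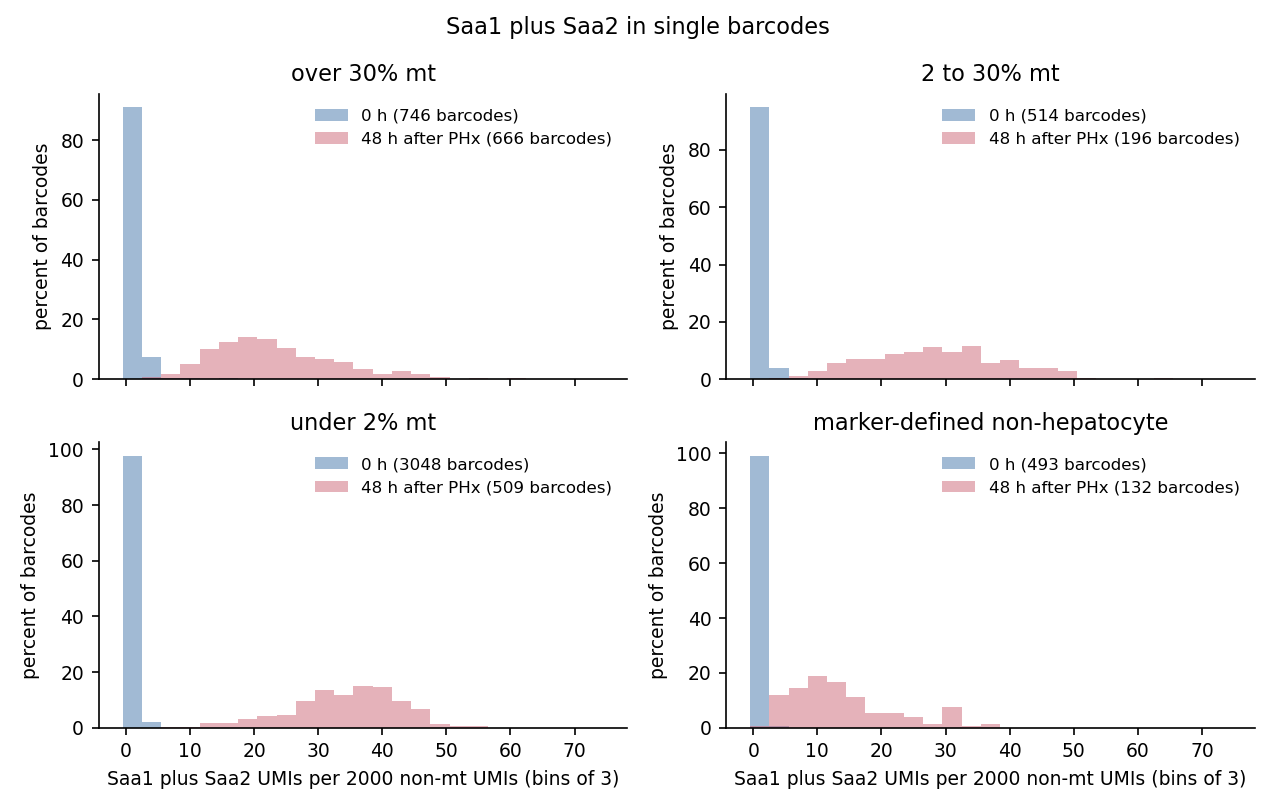
Percent of barcodes (vertical axis) by Saa1 plus Saa2 UMIs per 2000 non-mt UMIs (horizontal axis, bins of 3) at 0 h (blue) and 48 h after PHx (red) in each set. Over 30% mt the median was 0 at 0 h and 22 at 48 h, and under 2% mt the 48 h distribution was higher and narrower.

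The variation over 30% mt at 48 h went with genes of lobular zonation, the division of labor between hepatocytes near the central and the portal vein. Across the 666 barcodes, Saa1 plus Saa2 had a rho of 0.53 with the sum of 12 perivenous genes and -0.44 with 12 periportal genes. When barcodes were put in 4 equal groups by the perivenous share of zonal UMIs, the means were 17.6 (SD 6.59), 19.3 (SD 7.70), 25.2 (SD 8.97) and 31.1 (SD 9.93). The Saa1 share of the pair stayed between 59.1% and 60.2% in these groups, and mean Saa4 between 0.229 and 0.287 UMIs. By contrast, groups by the sum of 20 proliferation genes had means of 22.5 to 24.6, and groups by mt share 21.6 to 24.4. Across groups of rising sums of 23 other acute phase genes the means declined from 29.8 to 19.7. This direction was not shared by the other sets at 48 h. The rho with these genes was -0.35 over 30% mt, 0.29 under 2% mt and 0.26 between the limits. These values describe barcodes of 1 library thinned to a common total, so an increase of 1 abundant product lowers the remainder. Over 30% mt the rho with depth before thinning was -0.22.

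**Figure D4:**
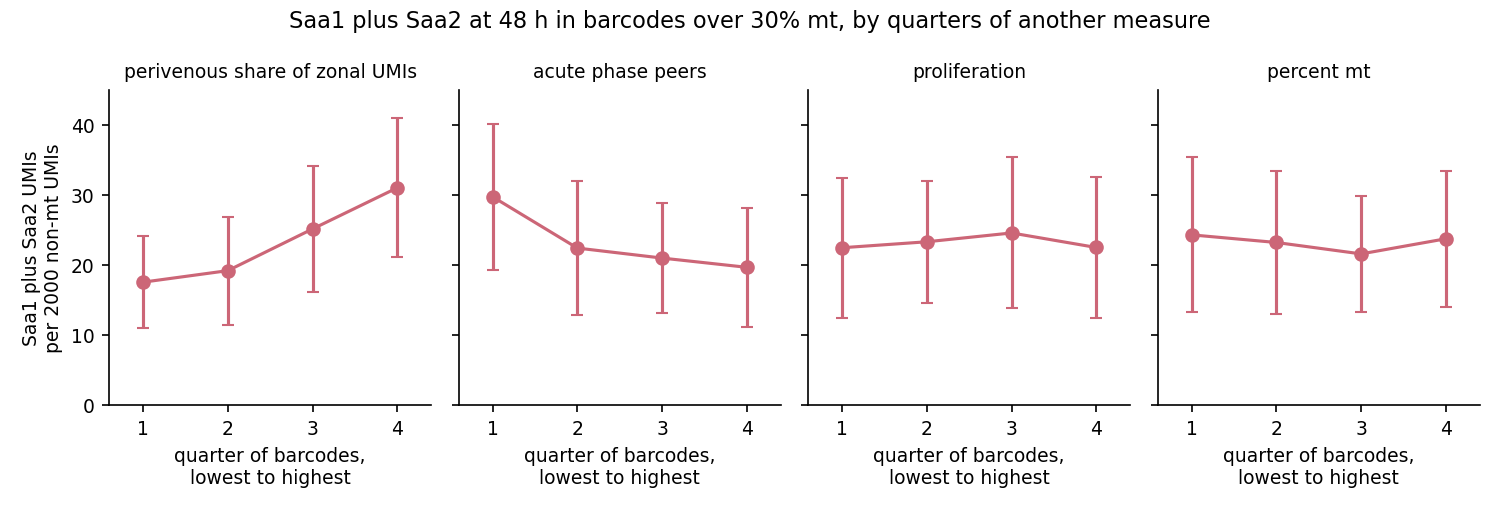
Mean Saa1 plus Saa2 UMIs per 2000 non-mt UMIs (points, vertical axis, with error bars of 1 SD between barcodes) at 48 h in 666 barcodes over 30% mt, in 4 groups of 166 or 167 ordered by perivenous share, acute phase peers, proliferation genes or percent mt. The mean was 17.6 in the group of lowest and 31.1 in that of highest perivenous share, and differed little across proliferation and percent mt.

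Single genes were ranked in the same way. Of 1329 genes with a mean of at least 0.2 UMIs, the 10 with the highest rho to Saa1 plus Saa2 were Cyp2e1 (0.45), Mup17, Apoc1, Cyp2c29, Cyp2a5, Mup11, Oat, Apoa2, Rpl41 and Fth1 (0.33). Cyp2e1, Cyp2c29 and Cyp2a5 encode cytochromes P450, and with Oat, ornithine aminotransferase, they were members of the perivenous list. The 5 lowest were Alb (-0.48), Trf, Hpx, Apoa4 and Hsd17b13 (-0.33), of which Trf encodes transferrin. The median gene had a rho of 0.01, and 5% of genes exceeded 0.19. Under 2% mt the rho with the perivenous list was 0.14 and between the limits 0.16. In the 132 non-hepatocyte barcodes, Saa1 plus Saa2 instead followed hepatocyte products as a whole, with a rho of 0.81 to the negative acute phase genes such as Alb and 0.73 to the acute phase peers. At the same barcodes the rho was 0.68 with periportal and 0.47 with perivenous genes.

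A few barcodes of the undamaged library already had Saa1 plus Saa2 levels of the kind seen at 48 h. They were identified, after the data had been seen, as barcodes whose Saa1 plus Saa2 UMIs had a Poisson probability below 1e-06 at the rate under 2% mt (274 CPM). There were 27 such barcodes of 59202, where sampling alone at that rate would give 0.0135. Of these Saa-rich barcodes, 22 were over 30% mt, 5 between the limits, and none under 2% mt or in the non-hepatocyte set. None shared its barcode sequence with the 48 h library. They held 7 to 133 UMIs of the pair, at 2069 to 33380 CPM with a median of 8205 CPM. The last barcode inside the limit had 11 UMIs of 5317, the next one outside had 6 of 1257, and 23 barcodes had a probability between 1e-06 and 0.0001, against 2.78 by sampling at the same rate. Even without the Saa-rich barcodes, the pair stood at 375 CPM over 30% mt and 305 CPM between the limits. Both expected numbers are therefore too low for these sets, and an excess over sampling within them was not tested. The 22 barcodes over 30% mt were 0.572% of that set and held 15.1% of its Saa1 plus Saa2 UMIs and 35.5% of its Saa2 UMIs.

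Saa3 was found in these barcodes although it took no part in their choice. They held 26 Saa3 UMIs, spread over 9 of the 27, and the other 6074 barcodes over 2% mt outside the non-hepatocyte set held 65. The level was 359 CPM (234–525), against 6.55 CPM in the other barcodes, a ratio of 54.7 (33.3–87.4). It was 61.6 without the barcode of most Saa1 and Saa2 UMIs. Saa4 showed no such difference, with 331 CPM (212–492) against 284 CPM. The Saa1 share of the pair, which the choice by the sum did not use, was 51.1% (47.0–55.2) against 82.6% (81.3–83.9) in the other barcodes. The share in Saa-rich barcodes at 0 h was below the 59.5% (59.0–59.9) over 30% mt at 48 h, although 22 of the 27 were over 30% mt. Its interval included the 48 h shares under 2% mt (52.2%), between the limits (55.0%) and in the non-hepatocyte barcodes (54.9%). All members but Saa4 were high in the Saa-rich barcodes.

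Genes outside the family followed in part. Lcn2, which encodes the iron-siderophore binding protein lipocalin 2, was at 345 CPM against 4.03 CPM, a ratio of 85.5 that rested on 5 barcodes and was 34.7 without the barcode of most Saa UMIs. Orm2, for an orosomucoid, was 9.55 times (6.41–13.8) as high, Hpx 2.62 times, Hp 2.18 times and Orm1 1.72 times. Of the fibrinogen chains, Fgb was 1.16 times as high. Crp, for C-reactive protein, was not distinguishable at this depth, with a ratio of 0.987 (0.750–1.27). Of the 12 perivenous genes, 8 had an interval below 1, 2 included 1 and 2 had 0 UMIs. Cyp2a5 had 3 UMIs and a ratio of 0.0931 (0.0192–0.272), Glul, for glutamine synthetase, 0.150 (0.0407–0.383), Oat 0.437 and Cyp2e1 0.514. Of the 12 periportal genes, 2 had an interval above 1, 2 below 1 and 8 included 1, with Cyp2f2 1.34 times as high and Cps1 at 0.713. For those 8 perivenous genes the direction was opposite to that of the perivenous sum across barcodes over 30% mt at 48 h, a difference that was not tested. The 20 proliferation genes had 4 UMIs in all in the Saa-rich barcodes, or 55.2 CPM against 33.0 CPM in the other barcodes, a ratio of 1.67 (0.453–4.32) that was not distinguishable from 1 at this depth. These ratios were not matched for mt share, and 22 of the 27 Saa-rich barcodes were over 30% mt. In all barcodes over 30% mt at 0 h, Hp was at 13402, Orm1 at 3979 and Cps1 at 1980 CPM. In the other barcodes of the ratios these 3 were at 9636, 2870 and 2707 CPM, whereas Glul was at 374 and 369 CPM. How far the mt share enters the ratios was not tested. The genes in this paragraph were chosen after their values were seen.

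**Figure D5:**
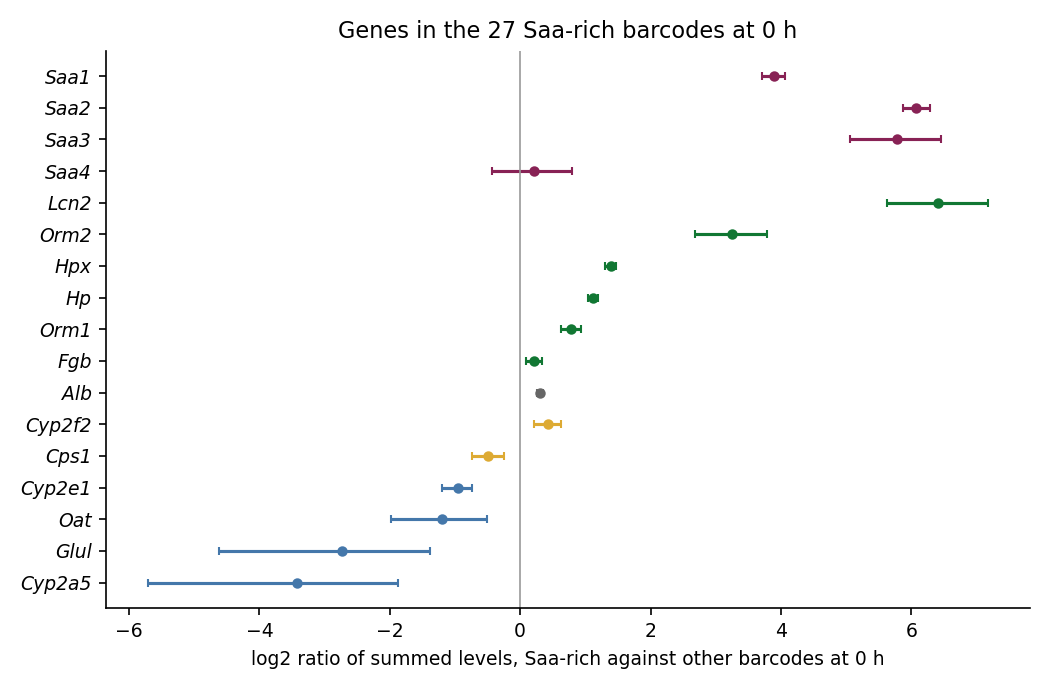
Log2 ratio of summed levels (horizontal axis) in the 27 Saa-rich barcodes at 0 h against the other 6074 barcodes over 2% mt, with exact 95% counting intervals, for the members (purple), acute phase peers (green), Alb (gray), periportal (yellow) and perivenous (blue) genes. Saa1 and Saa2 were used to choose the barcodes, Saa3 was 54.7 times as high without being used, and Saa4 included no difference.

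The pathway that governs these genes was read from lists, at 48 h against 0 h over 30% mt, where 32.4% of all genes were at least 2-fold higher and 6.42% lower. Of 7 IL-6 and IL-1 type ligands, none reached 10 UMIs, and Il1a and Lif were the highest with 2 and 1 UMIs at 48 h. In the non-hepatocyte barcodes 2 ligands could be compared, and 1 was at least 2-fold higher and 1 lower, beside 20% and 11.4% of all genes there. Il1a had 10 and 19 UMIs and Il1b 52 and 4 UMIs at 0 h and 48 h. Macrophage barcodes were 294 of 864 in this set at 0 h and 22 of 132 at 48 h. Of 10 cytokine receptors and signal transducers that could be compared, 1 was at least 2-fold higher and 1 lower. Jak1, a kinase of the IL-6 receptor, went from 29.1 to 65.2 CPM, whereas Il1rap, a chain of the IL-1 receptor, went from 155 to 58.7 CPM. Tnfrsf1a, a TNF receptor, was at 71.8 and 64.4 CPM, and Irak1, a kinase downstream of IL-1, at 27.4 and 49.2 CPM. The median log2 ratio of the list was 0.29, below the 0.56 of all genes.

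Of 8 transcription factors of the acute phase, 2 were at least 2-fold higher and none lower, with a median of 0.75. The share of 2 in 8 was below the 32.4% of all genes. Cebpa was at 97.1 and 165 CPM, Cebpb at 92.7 and 111 CPM, Stat3 at 42.9 and 84.0 CPM, and Maz, one of the 2 that were higher, had 178 and 355 UMIs. The other was Nfkb2, with 11 and 23 UMIs. Of 5 inhibitors, 2, Nfkbia and Tnfaip3, were higher, with a median of -0.20. Tnfaip3 had 0 and 10 UMIs. Nfkbia, which holds NF-κB in the cytoplasm, went from 14.3 to 37.9 CPM, while Sigirr, an inhibitory receptor of the IL-1 family, was at 56.8 and 49.6 CPM. Socs3, the feedback inhibitor of STAT3 signaling, was at 7.50 and 5.06 CPM and Pias3 at 5.06 and 3.24 CPM. Under 2% mt the corresponding medians were -0.64 for receptors, -0.14 for transcription factors and 0 for inhibitors.

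Other acute phase genes did not move as one with Saa1 and Saa2. Of 21 peers compared over 30% mt, 7 were at least 2-fold higher and 3 lower, with a median of 0.59 beside 0.56 for all genes, and the 7 of 21 were close to the 32.4% of all genes. Hpx went from 7404 to 18499 CPM, while Hp went from 13402 to 8447 CPM and Fgb from 6741 to 4603 CPM, and Orm1 was at 3979 and 5002 CPM. Of the peers with large ratios, Lcn2 went from 31 to 3233 UMIs, Mt1, a metallothionein, from 5.75 to 551 CPM, and Orm2 from 64.0 to 559 CPM. Crp went from 828 to 279 CPM and Lbp, for the lipopolysaccharide binding protein, from 88.2 to 34.4 CPM. These last 5 genes were chosen after their values were seen. Under 2% mt, 10 of 23 peers were higher and 6 lower, beside 24.3% and 17.9% of all genes. Among 22 peers in the non-hepatocyte barcodes, 10 were higher and 4 lower, beside 20% and 11.4%.

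Negative acute phase genes, whose products decline in inflammation, differed among themselves. Of 10, Apoa4 was higher, at 96.6 and 2525 CPM, and Fetub lower, at 967 and 467 CPM. The median of -0.19 was below the 0.56 of all genes. Alb was at 45045 and 51964 CPM, Apoa1 at 27135 and 21791 CPM, Trf at 18675 and 14293 CPM, and Apoa2 at 34760 and 17974 CPM. Under 2% mt, the log2 ratio was -1.11 for Alb, -1.90 for Trf and 0.95 for Apoa1. Among 6 genes for receptors of serum amyloid A and its partners on high-density lipoprotein, 1, P2rx7 with 5 and 9 UMIs, was higher and 1, Lcat, lower, with a median of -0.46. Lcat, which esterifies cholesterol on these particles, went from 639 to 271 CPM, Pon1, a paraoxonase, from 285 to 188 CPM, Cst3 from 396 to 269 CPM and Scarb1, the high-density lipoprotein receptor, from 104 to 81.0 CPM. Fpr2 and Tlr4, receptors for the protein on other cells, had 0 UMIs over 30% mt at both times. A count of 0 allows up to 3 UMIs, or 0.523 CPM at 0 h and 0.607 CPM at 48 h. Beside 32.4% higher and 6.42% lower among all genes, 1 of 12 perivenous genes was higher and 8 lower, 5 of 12 periportal genes were higher and 2 lower, and all 20 proliferation genes were higher, Rrm2 from 1.22 to 95.8 CPM.

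The neighbors of the cluster did not share its ratios. Of 10 genes in the files that lie in or within 100 kb of the cluster, 6 were not members. Over 30% mt the log2 ratio was 1.13 (0.52–1.77) for Saal1, 2.54 (1.49–3.76) for Sergef, 1.11 for Gtf2h1, -0.09 for Hps5 and 1.99 (1.91–2.07) for Ldha, the lactate dehydrogenase gene. Tph1 had 0 UMIs at both times. Sergef rested on 9 UMIs at 0 h. The largest of these, 2.54, was below the 4.20 of Saa1 and the 5.60 of Saa2, and Saa3 and Saa4 lay between Saal1 and Saa1 on the chromosome.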

How the data were processed

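Freshly isolated hepatocytes of 2 mice were profiled by scRNA-Seq (10X Genomics Single Cell 3′ v2), 1 library per time. The values are UMI counts per gene and barcode, which the authors made with Cell Ranger on mm10 according to the submitters' processing notes and deposited without normalization. The Cell Ranger version, annotation release and read length are not given in the sources used here. Per-sample columns outside the study's samples numbered 0. Bulk RNA-Seq and ATAC-Seq were not analysed here.

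Non-mt UMIs served as the total, and 13 mt genes were left out of it. A non-hepatocyte barcode had at least 3 markers of 1 class and a Poisson probability below 1e-06 for their sum. Of 110 markers and 123 list genes, 4 and 2 had no entry. No doublet caller was run, and an alternative left out the deepest 5% of barcodes. UMIs were summed per set, genes needed 10 UMIs to be compared, and a count of 0 was set to 3. Levels carry exact Poisson, shares exact binomial and ratios conditional binomial 95% intervals. With 1 library per time no test was possible, and barcodes are not replicates. The members, lists and tests were chosen with earlier results of these data known. Genes were named by rule: the members, up to 4 genes per list with the highest level at 48 h over 30% mt, genes within 100 kb, the 10 most and 5 least correlated genes, and the 5 top ratios. Others are marked as chosen after their values were seen, also where a count of list genes names its members. Promoters came from RefSeq, where all 4 members matched by symbol or identifier. The scripts were tested on simulated data. Python 3.11.15, NumPy 2.4.6, SciPy 1.17.1, pandas 2.3.3, Matplotlib 3.10.9, Biopython 1.88, R 4.3.3, edgeR 4.0.16 (TMM only) and DESeq2 1.42.0 (size factors only) were used.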

Additional observations from a re-analysis of the deposited data

How the results depend on the processing

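All values here are log2 ratios of the summed family unless stated. At 48 h against 0 h the ratio was 3.82 over 30% mt, 5.08 under 2% mt and 4.48 in non-hepatocyte barcodes. With all UMIs as the total it was 3.56 over 30% mt and 4.25 in non-hepatocyte barcodes. Without the 20 most abundant genes in the total the 3 values were 3.54, 4.79 and 4.28, and with TMM scaling 3.27, 4.81 and 4.22. DESeq2 size factors gave 3.25 over 30% mt and 4.18 in non-hepatocyte barcodes. Over 30% mt, limits of 50% and 1% gave 3.91 and limits of 20% and 5% also 3.91. Without the deepest 5% of barcodes the values were 3.89 over 30% mt and 5.10 under 2% mt. The 1500 deepest barcodes gave 5.17 under 2% mt and 4.80 in non-hepatocyte barcodes. The mean of single-barcode CPM gave 3.96, 5.11 and 4.35, and 10 CPM added to both levels gave 5.05 under 2% mt. Leaving out the Saa-rich barcodes at 0 h, an alternative chosen after seeing the data, gave 3.95 over 30% mt.

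Over 30% against under 2% mt at 48 h the ratio was -0.64. It was -1.77 with all UMIs, -0.55 without the 20 most abundant genes, -1.19 with TMM, -1.33 with DESeq2, -0.61 and -0.59 with the stricter and wider mt limits, -0.62 without the deepest 5% and -0.54 as a mean of barcodes. Non-hepatocyte barcodes against over 30% mt stood at -0.63. With all UMIs this reversed to 0.21, for Saa1 alone to 0.10 and for Saa2 to 0.37. By construction this total includes the mt UMIs that define the set over 30% mt. The other values were -0.86 without the 20 most abundant genes, -1.04 with TMM, -0.999 with DESeq2, -0.68 with mt limits of 20% and 5%, -0.71 without the deepest 5%, -0.73 as a mean of barcodes and -0.73 with the stricter marker rule. The Saa1 share over 30% mt at 48 h was 59.5%, and 58.7% with limits of 20% and 5%. The excess coefficient of variation was 37.2%, and 33.3% with limits of 50% and 1%. Apart from the stated reversal the cause of these movements was not tested. Of the ratios of single members, 128 stayed within their counting interval, 86 moved beyond it and 2 reversed. Genes past 2-fold higher numbered 3552, and 5202 when 1 UMI sufficed. No paired analysis was possible because each time had 1 library and no test was made. Saa3 is limited by its 8 to 58 UMIs per set outside the 0 h set under 2% mt.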
